A study of Mus musculus with 12 samples.

Results

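A set of 10 protein-coding genes of the p53 pathway was followed in mouse embryonic fibroblasts (MEFs): Trp53, which encodes p53 itself, and Mdm2, Cdkn1a, Ccng1, Btg2, Plk2, Bax, Bbc3, Pmaip1 and Trp53inp1, which p53 is known to activate. They were chosen by symbol from the deposited count table, and all 10 were found among its 24062 genes and kept by a filter on low counts, which left 12154 genes to test. The study compared MEFs expressing shRenilla, a control short hairpin RNA (shRNA) against a luciferase that these cells lack, with MEFs expressing shBruce, an shRNA against Birc6, the gene of the ubiquitin-conjugating enzyme and inhibitor of apoptosis BRUCE. Each line was kept in full medium (FM) or put for 2 h in a medium without serum and amino acids (Starv), giving 4 groups of 3 libraries. Each group rests on 1 shRNA, and nothing in the sources used here says whether the libraries of a group came from separate cultures, so that p-values measure the spread between these libraries. How the MEFs were immortalised, and whether their p53 is wild type, is not given in the sources used here.

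p53 is a transcription factor that is kept scarce in unstressed cells, because Mdm2 marks it for degradation, and its activity is set largely at the level of the protein. When DNA damage or other stress stabilises it, p53 binds a response element made of a pair of half-sites and switches on genes that halt the cell cycle, repair DNA or start apoptosis. Mdm2 is one of these genes, which closes a negative feedback loop. In fibroblasts the pathway is best known for arrest and senescence, and many of its target genes also answer to growth factors or to nutrient stress through other factors.

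Promoter sequences are shown first for 3 of the genes whose transcripts moved after starvation, each with a motif found in it, and for a pair of genes with a p53 element. The motifs were picked with the results known, so that the matches describe these windows and do not sort the genes by response. RefSeq windows (GRCm38.p6) of 250 bases before a start and 50 after it were at hand for 8 of the 10 genes, as 11 windows, and those of Trp53inp1 and Pmaip1 were not analysed here. Each line below holds the 250 bases before the start, 5′ to 3′ on the gene's strand, with the matched motif in capitals. The cyclic AMP response element TGACGTCA, which binds CREB and ATF factors, was found in Btg2 (chr1:134079156-134079405, minus strand), 166 to 159 bases before the start, and in Plk2 (chr13:110394794-110395043, plus strand), 62 to 55 bases before the start. The FOXO motif GTAAACA was found, on the opposite strand, in one of 3 windows of Bbc3 (chr7:16310011-16310260, plus strand), at an internal start, and these bases lie in an intron of the GENCODE gene. The p53 response element was searched as 2 half-sites up to 13 bases apart, with the C and G of each core kept and at most 1 mismatch. It was found in the upstream of 2 windows of Cdkn1a (chr17:29090729-29090978, plus strand), as 2 overlapping matches between 73 and 32 bases before that window's start. The other Cdkn1a window held no match to it. In Ccng1 (chr11:40755287-40755536, minus strand) it lay 195 to 176 bases before the start.
Btg2: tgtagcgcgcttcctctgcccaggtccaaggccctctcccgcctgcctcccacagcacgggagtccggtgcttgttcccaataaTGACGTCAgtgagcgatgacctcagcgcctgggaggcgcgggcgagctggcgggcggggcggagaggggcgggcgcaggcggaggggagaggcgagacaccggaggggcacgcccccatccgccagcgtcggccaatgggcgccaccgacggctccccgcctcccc
Plk2: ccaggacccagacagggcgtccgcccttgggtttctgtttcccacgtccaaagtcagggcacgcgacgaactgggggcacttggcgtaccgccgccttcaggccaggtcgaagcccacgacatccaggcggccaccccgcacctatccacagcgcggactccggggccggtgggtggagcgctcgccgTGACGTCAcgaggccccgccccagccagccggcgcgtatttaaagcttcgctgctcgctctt
Bbc3: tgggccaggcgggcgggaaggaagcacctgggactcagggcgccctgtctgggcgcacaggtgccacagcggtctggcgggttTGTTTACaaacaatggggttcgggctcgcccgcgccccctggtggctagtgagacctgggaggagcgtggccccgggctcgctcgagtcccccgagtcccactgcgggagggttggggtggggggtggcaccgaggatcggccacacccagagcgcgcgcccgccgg
Cdkn1a: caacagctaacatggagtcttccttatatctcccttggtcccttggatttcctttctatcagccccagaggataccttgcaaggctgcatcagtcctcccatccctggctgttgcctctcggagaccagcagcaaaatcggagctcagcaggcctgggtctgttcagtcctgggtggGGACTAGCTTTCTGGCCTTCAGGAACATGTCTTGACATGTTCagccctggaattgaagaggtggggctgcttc
Ccng1: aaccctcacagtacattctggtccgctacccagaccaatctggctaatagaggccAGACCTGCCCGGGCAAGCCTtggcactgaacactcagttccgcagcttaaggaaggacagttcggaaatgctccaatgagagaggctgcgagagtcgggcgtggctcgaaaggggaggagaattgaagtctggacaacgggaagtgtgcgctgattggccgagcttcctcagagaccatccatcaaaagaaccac

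Searched on both strands, TGACGTCA was in 1.79% of all 32851 promoter windows, GTAAACA in 3.65% and the p53 element in 0.627%. The FOXO motif was also in the Mdm2 window, 153 to 147 bases before the start, and Mdm2 did not pass the test after starvation. The AP-1 motif TGANTCA (7.81% of all windows), the CEBP-ATF motif TGATGNAA (3.97%) and the CArG box of serum response factor (1.63%) were in none of the 11 windows, which says only that these letters are not in these stretches. A match describes the sequence and does not show that a factor binds it.

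Birc6, the target of the shRNA, was measured first as a check of the labels. Its normalized counts (raw counts scaled to a common library size) were 4682, 3273 and 5061 in shRenilla FM, 4759, 4712 and 2787 in shRenilla Starv, 1207, 1265 and 1390.4 in shBruce FM, and 1175, 703 and 1226 in shBruce Starv. All 6 shBruce libraries lay below all 6 shRenilla libraries, with a log2 difference of -1.75 ± 0.25 (SE) in FM (edgeR adjusted p = 0.0627) and of -1.98 ± 0.25 in Starv (adjusted p = 0.0186). Total counts ran from 7717265 in shBruce Starv replicate 1 to 18510540. The shBruce Starv libraries stood farther from one another than the rest, with a median absolute log2 difference from their own replicates of 0.234 to 0.385 against 0.105 to 0.199 in the other 9 libraries. As for cell identity, 14 of 15 fibroblast markers had at least 10 counts in every library, and the fibroblast markers summed to 154733 to 241018 normalized counts, against much lower sums for markers of epithelial (4.19 to 24.2), endothelial (6.94 to 64.0), blood (4.96 to 24.2) and muscle cells (21.8 to 84.8).

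Per kilobase of exon and averaged over all 12 libraries, Trp53 was the most abundant transcript at 1377 normalized counts per kilobase, followed by Plk2 at 1143 and Bax at 986, but the order at the top depended on the medium. In shRenilla FM Plk2 (1724 to 1784 per kilobase) lay above Trp53 (1411 to 1542), and in shRenilla Starv it lay below it (722 to 787 against 1242 to 1381). In shBruce FM Plk2 (1226 to 1810.2) and Trp53 (1234 to 1667) overlapped, and in shBruce Starv Plk2 (319 to 695) lay below Trp53 (1244 to 1285), which fell inside the range of Bax (820.4 to 1664). A middle group held Ccng1 at 401, Mdm2 at 279.6 and Cdkn1a at 229. Bbc3 (106), Btg2 (64.7), Trp53inp1 (32.8) and Pmaip1 (16.2) were the least abundant. Over all 12 libraries, fed and starved together, Bax and Ccng1 were the one pair of neighbours in this order whose ranges did not touch. The plot of the members by library shows the same values per gene.

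**Figure D1:**
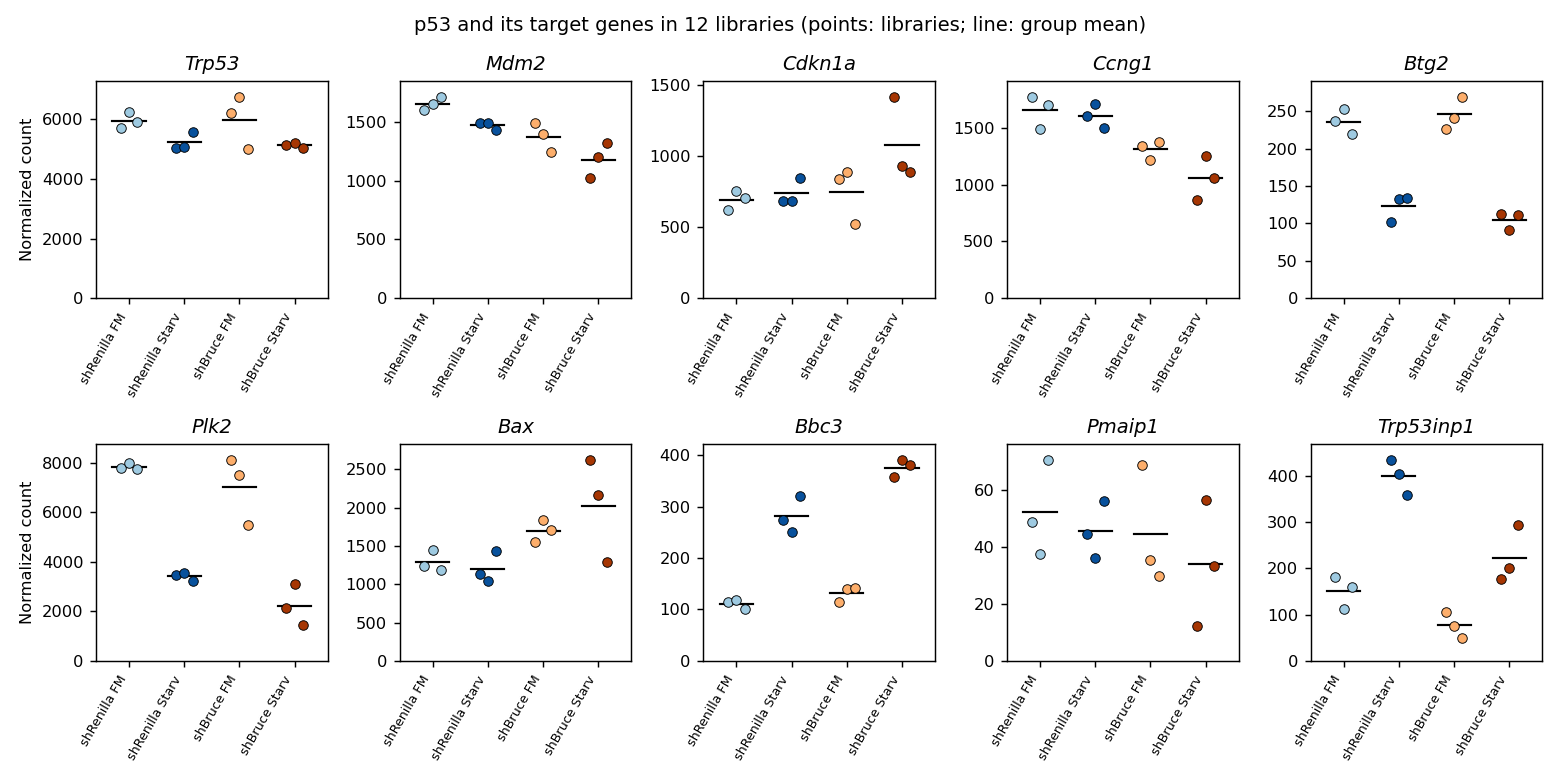
Normalized counts (vertical axis, from 0) of the 10 genes in the 12 libraries, with a point for each library, in replicate order from left to right, and a line for the mean of each group of 3. Btg2 and Plk2 are lower and Bbc3 and Trp53inp1 higher in Starv than in FM in both lines, and the other 6 genes show smaller shifts.

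The first question was what 2 h of starvation did to these transcripts in control cells. In shRenilla MEFs 4 of the 10 genes changed: Bbc3 and Trp53inp1 rose more than 2-fold, and Btg2 and Plk2 fell to 0.521 and 0.435 of their level in FM. p53's own transcript and its most widely used reporters, Cdkn1a and Mdm2, did not pass the test. Over all genes tested, 17.0% passed an adjusted p of 0.05 in the same comparison, 9.69% as higher and 7.27% as lower, beside 2 genes higher and 2 lower of the 10. The libraries of the groups did not overlap for 6 of the 10 genes, beside 52.4% of all genes. The median log2 change of the 10 genes was -0.14, beside -0.0051 over all genes.

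Bbc3 encodes PUMA, a BH3-only protein that frees Bax and Bak at the mitochondrial surface and so starts apoptosis. Its normalized counts were 115, 119 and 100.4 in shRenilla FM and 274, 251 and 321 in shRenilla Starv. In shBruce they were 115, 140.3 and 142 in FM and 357, 391 and 381 in Starv. Every starved library lay above every FM library in each line. The log2 change was 1.34 ± 0.15 in shRenilla (2.53-fold, 95% CI 2.03 to 3.14, adjusted p = 5.8e-05) and 1.51 ± 0.15 in shBruce (2.85-fold, 95% CI 2.29 to 3.54, adjusted p = 1.8e-05).

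Trp53inp1 encodes a stress protein that binds ATG8 family proteins as well as p53-activating kinases, and is linked to autophagy and to p53-dependent death. It had 181, 111 and 160.4 normalized counts in shRenilla FM and 434, 403 and 359 in shRenilla Starv. In shBruce it had 106, 75.4 and 49.6 in FM and 176, 201 and 294 in Starv. The groups did not overlap in either line, although the starved shBruce libraries reached up only to 294, below all starved control libraries. The log2 change was 1.40 ± 0.26 in shRenilla (2.64-fold, adjusted p = 0.00247) and 1.55 ± 0.28 in shBruce (2.93-fold, adjusted p = 0.00158).

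Btg2 encodes an antiproliferative protein that recruits the CCR4-NOT deadenylase to messenger RNAs, and it is also an immediate early gene. It fell from 237, 253 and 219.5 normalized counts in shRenilla FM to 102, 133 and 134 in Starv, and from 227, 241 and 269 in shBruce FM to 113, 91.8 and 111 in Starv. The starved libraries lay below the FM libraries throughout. The log2 change was -0.94 ± 0.15 in shRenilla (1.92-fold lower, adjusted p = 0.00102) and -1.23 ± 0.16 in shBruce (2.35-fold lower, adjusted p = 1.7e-04).

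Plk2, a polo-like kinase that acts in centriole duplication and is induced by serum as well as by p53, was the gene that fell most. It had 7792, 8010.2 and 7743 normalized counts in shRenilla FM and 3455, 3535 and 3241 in Starv. In shBruce it had 8129.6, 7512 and 5508 in FM and 2136, 3121 and 1433 in Starv. Again the groups did not overlap. The log2 change was -1.20 ± 0.22 in shRenilla (2.30-fold lower, adjusted p = 0.00268) and -1.66 ± 0.23 in shBruce (3.16-fold lower, adjusted p = 2.8e-04). The windows of Btg2 and Plk2 printed above both hold TGACGTCA, a motif picked with the results known, and a link to their fall was not tested.

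The other 6 genes did not pass in shRenilla. Trp53 had 5706 to 6238 normalized counts in FM and 5025 to 5586 in Starv, a log2 change of -0.19 ± 0.12 (adjusted p = 0.314). Mdm2, the ubiquitin ligase that degrades p53, had 1599 to 1713 in FM and 1431 to 1496 in Starv, a log2 change of -0.17 ± 0.12 (adjusted p = 0.352). For both genes the 3 starved libraries lay below the 3 FM libraries, by less than the test could separate.

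Cdkn1a encodes p21, the inhibitor of cyclin-dependent kinases through which p53 arrests the cycle. It had 619, 754 and 702 normalized counts in shRenilla FM and 683, 682 and 845 in Starv, so that the groups overlapped, and the log2 change was 0.091 with a 95% CI of -0.37 to 0.55. Ccng1, the gene of cyclin G1, which recruits a phosphatase to Mdm2, changed by -0.044 (95% CI -0.34 to 0.25), and Bax, the pore-forming effector of apoptosis, by -0.11 (95% CI -0.56 to 0.35). Pmaip1, which encodes the BH3-only protein NOXA, had 37.7 to 70.8 normalized counts in FM and 36.3 to 56.2 in Starv, and its interval of -1.08 to 0.67 is too wide to tell a change of 2-fold lower from none.

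**Figure D2:**
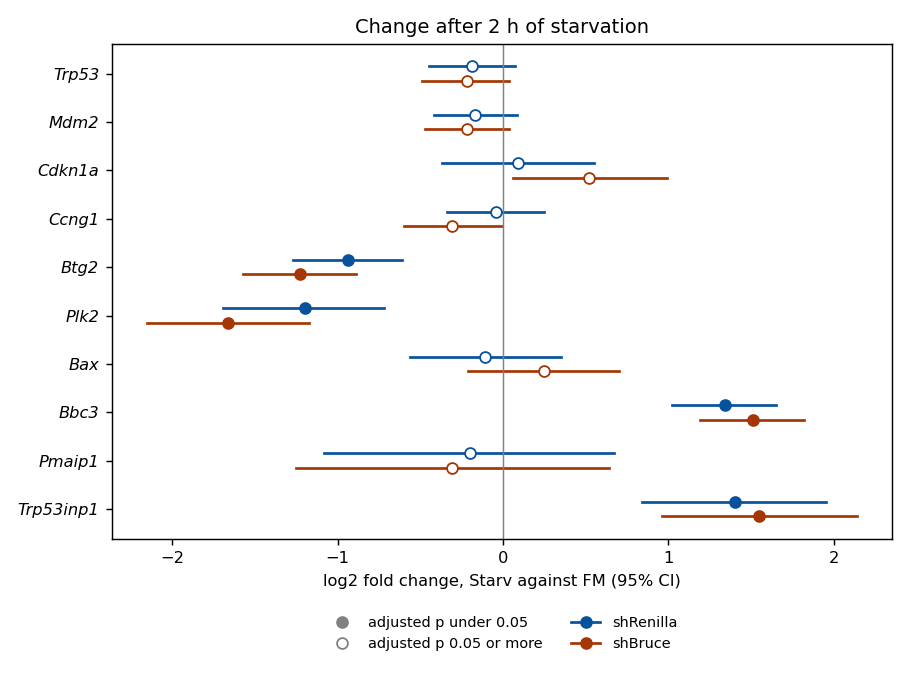
Log2 fold change of each of the 10 genes in Starv against FM (horizontal axis, with 95% CI) in shRenilla and shBruce, 3 libraries in each group. Filled points passed an adjusted p of 0.05, and the same 4 genes are filled in both lines, Bbc3 and Trp53inp1 to the right and Btg2 and Plk2 to the left.

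In shBruce MEFs the same 4 genes passed, in the same directions. Of all genes tested 23.0% passed, 12.4% as higher and 10.6% as lower, beside 2 higher and 2 lower of the 10. The groups did not overlap for 5 of the 10 genes, beside 30.9% of all genes, and the median log2 change was -0.22, beside 0.021 over all genes. All 8 calls of these 4 genes held in each of 22 alternative settings, with a highest adjusted p of 0.0205. With upper-quartile scaling the share of all calls that were higher moved from 57.2% to 71.2% in shRenilla and from 54.0% to 68.1% in shBruce, and with length and GC trends removed it was 43.6% in shBruce.

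Of the remaining genes in shBruce, Cdkn1a was nearest to a call. Its normalized counts were 839, 885 and 521 in FM and 1415, 927 and 891 in Starv, without overlap, and the log2 change was 0.52 ± 0.21 (95% CI 0.059 to 0.99, adjusted p = 0.0974). Without shBruce Starv replicate 3 it passed at 0.64. Ccng1 changed by -0.31 ± 0.14 (adjusted p = 0.128) and passed without shBruce Starv replicate 2 (-0.45) and with length and GC trends removed (-0.41), Trp53 changed by -0.22 ± 0.12 (adjusted p = 0.202) and passed without shBruce FM replicate 3 (-0.34), and Bax changed by 0.25 ± 0.21 (adjusted p = 0.418) and passed without shBruce Starv replicate 3 (0.49). Mdm2 changed by -0.22 (95% CI -0.47 to 0.035) and Pmaip1 by -0.31 (95% CI -1.25 to 0.64).

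Whether starvation acted differently on the genes in the 2 lines was tested directly as the interaction of line and medium. None of the 10 genes passed (edgeR), none had an unadjusted p under 0.05, none passed with limma-voom or DESeq2, and of all genes tested 0% passed, with 474 genes at an unadjusted p under 0.05 and 0 calls with limma-voom or DESeq2. The differences between the changes ran from -0.46 ± 0.31 for Plk2 to 0.43 ± 0.30 for Cdkn1a on the log2 scale. The 95% CI was -0.27 to 0.61 for Bbc3, -0.65 to 0.95 for Trp53inp1, -0.76 to 0.18 for Btg2 and -1.13 to 0.22 for Plk2. For Plk2 the interval reaches a 2.20-fold stronger fall in shBruce.

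The next question was whether knockdown of Birc6 shifted the pathway in cells that were not starved. In FM none of the 10 genes passed between shBruce and shRenilla with edgeR, limma-voom or DESeq2, and of all genes tested 0% passed with edgeR. DESeq2 called 71 genes in all, limma-voom 0 and a fit of the groups compared alone 597, none of them among the 10. At an unadjusted p under 0.05 there were 3 of the 10 genes and 1750 of all genes. The libraries of the lines did not overlap for 4 of the 10 genes, beside 33.4% of all genes. The lowest was Trp53inp1, with 106, 75.4 and 49.6 normalized counts in shBruce against 181, 111 and 160.4 in shRenilla, a log2 difference of -0.98 ± 0.27 (adjusted p = 0.259). Mdm2 differed by -0.27 ± 0.12, Ccng1 by -0.34 ± 0.14 and Bax by 0.40 ± 0.21, each without overlap, and Trp53 by 0.0085 (95% CI -0.25 to 0.27). Across all genes the median log2 difference in FM was 0.18 up to the lower quartile of exon length and -0.18 from the upper quartile. For GC content these medians were -0.18 and 0.18. With length and GC trends removed Mdm2 came to -0.14, Ccng1 to -0.19, Bax to 0.13 and Trp53inp1 to -0.69.

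After starvation 4 of the 10 genes passed between the lines: Bax and Bbc3 were higher in shBruce, and Ccng1 and Trp53inp1 lower. Of all genes tested 23.9% passed, 12.8% as higher and 11.2% as lower, beside 2 and 2 of the 10, and the libraries did not overlap for 6 of the 10 genes, beside 34.9% of all genes. The number of calls over all genes was itself unstable, at 2907 in the fit of all libraries, 0 in a fit of these 2 groups alone and 0 to 5735 with a library left out. The median log2 difference of the 10 genes was -0.27, beside -0.0012 over all genes. The comparison shares its shBruce Starv libraries with the starvation comparison in shBruce, and its shRenilla Starv libraries with that in shRenilla.

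Ccng1 had 864, 1256 and 1058 normalized counts in shBruce Starv against 1606, 1713 and 1495 in shRenilla Starv, without overlap, a log2 difference of -0.60 ± 0.14 (1.51-fold lower, adjusted p = 0.0225). Trp53inp1 had 176, 201 and 294 against 434, 403 and 359, again without overlap, a difference of -0.82 ± 0.25 (1.77-fold lower, adjusted p = 0.0365). Bbc3 had 357, 391 and 381 against 274, 251 and 321, a difference of 0.42 ± 0.14 (1.34-fold, adjusted p = 0.0461). All shBruce libraries lay on one side of the control for these 3 genes.

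Bax behaved less evenly. It had 2622, 2159.5 and 1293 normalized counts in shBruce Starv against 1127, 1046 and 1427 in shRenilla Starv, so that replicate 3 of shBruce fell inside the control range, and the difference was 0.75 ± 0.21 (1.68-fold, adjusted p = 0.0288). Cdkn1a (0.54 ± 0.21, adjusted p = 0.0766), Plk2 (-0.61 ± 0.22, adjusted p = 0.0596) and Mdm2 (-0.32 ± 0.12, adjusted p = 0.0636) did not pass, although none of them overlapped between the lines. With DESeq2 Plk2 (adjusted p = 0.0395) and Mdm2 (adjusted p = 0.0370) passed, and Plk2 also passed with limma-voom (adjusted p = 0.0449). Over all genes DESeq2 called 3764 and limma-voom 2768, beside 2907 with edgeR. Trp53 differed by -0.027 (95% CI -0.29 to 0.24), Btg2 by -0.23 (95% CI -0.58 to 0.11) and Pmaip1 by -0.34 (95% CI -1.26 to 0.59).

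The line differences after starvation moved with transcript length and GC content across all genes. Genes up to the lower quartile of exon length (2820.0 bases) had a median log2 difference of 0.38 and those above the upper quartile (6882 bases) of -0.32, and genes up to the lower quartile of GC content (44.8%) had -0.27 and those above the upper quartile (54.5%) 0.27. The higher pair, Bax (1576 exonic bases, 63.5% GC) and Bbc3 (2124 bases, 65.2%), is short and GC-rich, and the lower pair, Ccng1 (3512 bases, 40.8%) and Trp53inp1 (6475 bases, 38.8%), is longer and GC-poor. With each library's length and GC trends removed, Ccng1 still passed at -0.45 ± 0.10 (adjusted p = 0.0297), while Bax came to 0.11 (adjusted p = 0.517), Bbc3 to -0.088 (adjusted p = 0.718) and Trp53inp1 to -0.45 (adjusted p = 0.153). Of the genes near a call, Plk2 came to -0.48 (edgeR adjusted p = 0.165), Mdm2 to -0.11 (0.442) and Cdkn1a to 0.39 (0.175). Over 22 alternatives the adjusted p ran from 0.00129 to 0.117 for Ccng1, 5.6e-04 to 0.571 for Bax, 0.0189 to 0.718 for Bbc3 and 0.00462 to 0.186 for Trp53inp1. The calls also changed with the libraries in the fit. With 1 library left out, the log2 differences kept their signs, at -0.74 to -0.49 for Ccng1 and 0.51 to 0.99 for Bax. They were 0.34 to 0.52 for Bbc3 and -1.08 to -0.70 for Trp53inp1. None of the 10 genes passed when replicate 1 or replicate 2 of shRenilla Starv, or replicate 2 of shBruce Starv, was left out, nor in a fit of these 2 groups alone. In these settings 0, 0, 15 and 0 of all genes passed, beside 2907 in the fit of all libraries. Leaving out replicate 1 of shBruce Starv left 1 call, Ccng1, beside 573 over all genes, and leaving out replicate 3 of shRenilla FM or replicate 2 of shBruce FM left 2, Ccng1 and Bax. Without replicate 3 of shBruce Starv 6 genes passed, Cdkn1a and Mdm2 beside the 4, and 5735 over all genes.

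**Figure D3:**
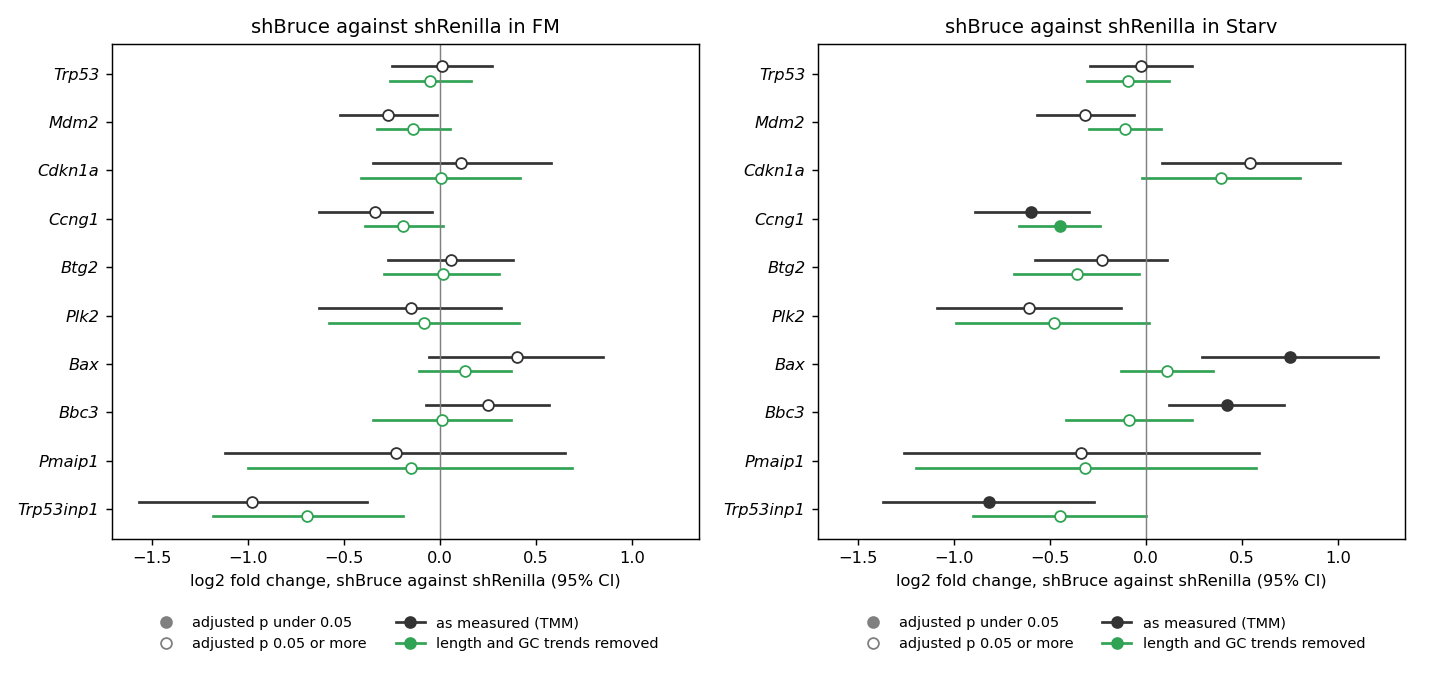
Log2 difference of shBruce against shRenilla (horizontal axis, with 95% CI) for the 10 genes in FM and in Starv, as measured and with each library's trend against length and GC removed, with 3 libraries in each group and filled points at an adjusted p under 0.05. In FM no point is filled. In Starv Bax and Bbc3 move close to 0 once the trends are removed, while Ccng1 and Trp53inp1 both lie at -0.45, and of these only Ccng1 is filled.

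Annotated exons of other genes (GENCODE M21) overlap exons of 2 of the 10. Bax shares 192 exonic bases with Gm45808 on the same strand, and Cdkn1a shares 273 with AC167363.2 on the opposite strand, and how the counting treated strand and overlaps is not given in the sources used here. In bulk RNA, fewer cells of a type and less RNA per cell cannot be told apart.

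A list of 43 further p53 targets, of which 42 were tested, also moved in both directions. After starvation 7 rose and 8 fell in shRenilla (35.7%), with a median of -0.014, and 7 rose and 9 fell in shBruce (38.1%), with a median of 0.038. Of all genes, 17.0% and 23.0% passed. In the list, 13 were called in the same direction in both lines. That is 86.7% of the list's calls in shRenilla and 81.2% in shBruce, beside 74.5% and 55.1% of all genes' calls, and the lines share no library. Sesn2, which restrains mTORC1, rose from 171 ± 22.9 (SD, n = 3) to 1302 ± 26.1 normalized counts in shRenilla (log2 change 2.93 ± 0.37) and by 2.38 ± 0.37 in shBruce. Gadd45a, a growth arrest and DNA damage gene, rose from 297 ± 3.52 to 1808 ± 163 in shRenilla (2.60 ± 0.13) and by 2.87 ± 0.14 in shBruce. Both of these are also known targets of ATF4, the transcription factor of amino acid shortage. Ddb2, which recognises ultraviolet damage, rose by 1.13 ± 0.19 and 0.94 ± 0.20.

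Among the p53 targets that fell, Lif, a cytokine gene, went from 1115 ± 49.6 to 128 ± 10.3 normalized counts in shRenilla (-3.12 ± 0.19) and changed by -3.63 ± 0.20 in shBruce. Rap2b, a small GTPase, changed by -1.27 ± 0.11 and -1.42 ± 0.11. Tnfrsf10b, a death receptor that p53 induces, fell in both lines (-0.88 ± 0.10 and -1.06 ± 0.10), and Plk3, a relative of Plk2, fell in both lines (-0.87 ± 0.18 and -1.25 ± 0.18).

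Of 34 regulators of p53 tested, 4 rose and 2 fell in shRenilla and 3 rose and 3 fell in shBruce, which is 17.6% in each line, beside 17.0% and 23.0% of all genes. Sirt1, a deacetylase of p53, rose from 1043 ± 163 to 2102 ± 62.7 normalized counts in shRenilla (1.01 ± 0.20) and by 0.94 ± 0.20 in shBruce. Ppm1d, a phosphatase that is both a target and a brake of p53, rose by 0.67 ± 0.13 and 0.58 ± 0.13, and Chek1, a checkpoint kinase, by 0.63 ± 0.13 and 0.62 ± 0.13. Usp10, which removes ubiquitin from p53, changed by -0.48 ± 0.10 and -0.62 ± 0.10. Trp53rk fell in shRenilla (-0.72 ± 0.21), and Hipk2 (-0.84 ± 0.28) and Trp53bp1 (-0.52 ± 0.16) fell in shBruce, calls that held in 15, 12 and 14 of 22 alternatives.

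Within the Bcl2 family, to which Bax, Bbc3 and Pmaip1 belong, 1 of 10 further genes tested rose and 1 fell in each line. These 2 calls of 10 stand beside 17.0% of all genes in shRenilla and 23.0% in shBruce. Bmf, a BH3-only gene, rose from 23.0 ± 6.64 to 115 ± 15.8 normalized counts in shRenilla (2.31 ± 0.29, adjusted p = 1.7e-04) and from 18.9 ± 1.19 to 149 ± 54.4 in shBruce (3.00 ± 0.30, adjusted p = 2.8e-05). Bcl2l1, whose main product BCL-XL blocks apoptosis, fell from 1457 ± 66.6 to 696 ± 40.8 in shRenilla (-1.06 ± 0.15) and from 1459 ± 209 to 773 ± 154 in shBruce (-0.92 ± 0.15). Of the other BH3-only genes tested, Bcl2l11 (0.61 ± 0.20, adjusted p = 0.055, and 0.39 ± 0.21), Bad (-0.082 and 0.34), Bid (0.0074 and -0.084) and Pmaip1 did not pass in shRenilla or shBruce, nor did Bax, Bak1 and Mcl1.

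Relatives of the members did not simply follow them. Ccng2, the relative of Ccng1, rose from 218 ± 29.1 to 1416 ± 32.6 normalized counts in shRenilla (2.70 ± 0.23) and from 174 ± 39.3 to 1104 ± 347 in shBruce (2.67 ± 0.23), while Ccng1 itself did not pass. Cdkn1b, the relative of Cdkn1a that encodes p27, rose from 798 ± 80.2 to 1563 ± 13.3 in shRenilla (0.97 ± 0.20) and by 1.29 ± 0.20 in shBruce. Btg1, the relative of Btg2, changed by 0.053 ± 0.16 and 0.22 ± 0.17, without passing. Of the 12 relatives tested, 2 rose and 1 fell in shRenilla, and 3 rose and 2 fell in shBruce. These 3 and 5 calls of 12 stand beside 17.0% and 23.0% of all genes. In shBruce the third to rise was Cdkn1c (1.35 ± 0.44, from 14.0 to 38.8 normalized counts), and Plk1 fell by 0.67 on the log2 scale.

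The remaining 3 lists give the setting of these changes. Of 39 cell cycle genes that p53 represses through p21 and the DREAM complex, 1 rose and none fell in shRenilla (edgeR, 5 at an unadjusted p under 0.05), and 3 rose and 3 fell in shBruce. That is 2.56% and 15.4%, beside 17.0% and 23.0% of all genes. Ndc80, a kinetochore gene, rose in both lines (0.78 ± 0.19 and 0.75 ± 0.19), and in shBruce E2f1 (0.65 ± 0.13) and Mcm7 (0.49 ± 0.10) rose while Bub1b (-0.46 ± 0.14) and Cdk1 (-0.44 ± 0.13) fell beside Plk1. Of 18 immediate early genes, which serum induces, 14 fell and 1, Atf3, rose in shRenilla (83.3%), and 13 fell and 1, Atf3, rose in shBruce (77.8%), with medians of -1.50 and -1.37. Cyr61 changed by -3.06 ± 0.39 and -3.50 ± 0.40, and Atf3 by 1.16 ± 0.15 and 1.12 ± 0.15. Of 20 ATF4 targets, 15 rose and none fell in shRenilla and 13 rose and none fell in shBruce, with medians of 1.31 and 1.15, and Trib3 rose by 4.16 ± 0.19 and 3.92 ± 0.19.

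**Figure D4:**
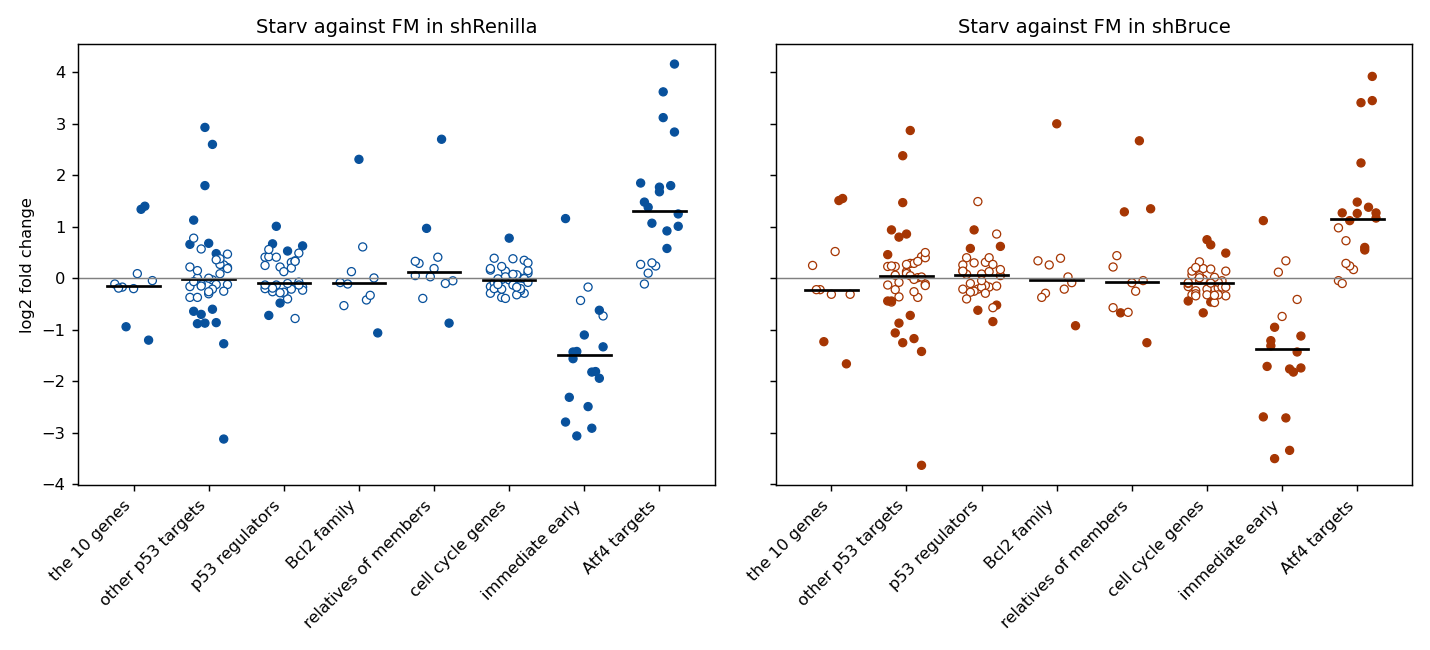
Log2 fold change in Starv against FM (vertical axis) for the 10 genes and 7 lists, in shRenilla and in shBruce, with a point for each tested gene, filled at an adjusted p under 0.05, and a line at the median of each list. The p53 lists spread to both sides of 0, the immediate early list lies mostly below 0 and the ATF4 targets mostly above it.

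Between the lines after starvation, 6 of the 42 further p53 targets were higher in shBruce and 5 lower, with a median of -0.088. That is 26.2%, beside 23.9% of all genes. Crip2 (0.92 ± 0.17), Rps27l (0.77 ± 0.18) and Cpt1c (0.68 ± 0.19) were higher, and Rrm2b (-0.88 ± 0.28), Apaf1 (-0.85 ± 0.19) and Polk (-0.70 ± 0.16) lower. With length and GC trends removed Rrm2b and Polk no longer passed. Of the 34 regulators 5 were higher and 5 lower (29.4%). Among them was Mdm4, the partner of Mdm2, at 218 ± 138 normalized counts in shBruce against 609.7 ± 199 in shRenilla (-1.46 ± 0.38, edgeR adjusted p = 0.0254). Atm, the kinase that signals DNA breaks to p53, was lower (-0.98 ± 0.24) and both passed with the trends removed (-0.99 and -0.54). Cdkn2a (0.91 ± 0.25), Stub1 (0.71 ± 0.19) and Huwe1 (-0.85 ± 0.26) did not. Rpl11, which has near-identical pseudogene copies that can share its reads, was at 1015 ± 1022 against 207 ± 55.7 and is uncertain. In the Bcl2 family Bad (0.76 ± 0.23) and Bok (0.64 ± 0.19) were higher and neither passed with the trends removed. Over 22 alternatives these genes passed in 10 to 17. Of the 12 relatives 1 was higher, Cdkn1c (1.56 ± 0.44), and 2 were lower, Mdm4 and Plk4 (-0.66 ± 0.20), and of the 39 cell cycle genes 4 were higher and 4 lower, of the 18 immediate early genes 2 and 1, and of the 20 ATF4 targets 1 and none. In FM no gene of these lists passed between the lines (edgeR). At an unadjusted p under 0.05 there were 7 of the 42 p53 targets and 6 of the 34 regulators, beside 1750 of all 12154 genes.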

How the data were processed

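The deposited table holds raw read counts per gene for 12 libraries, which the authors made from poly(A)-enriched RNA with 50-base single reads, aligned to mm10 with STAR (version 2.4.0d) and counted with HTSeq (version 0.5.4p3) per the labels. The gene annotation and the strand setting are not given in the sources used here. Its symbols include 27 that a spreadsheet had turned into dates (0.296% of counts), and 2 symbols occur 2 times. None of these touches a gene named here. Total counts were 7717265 to 18510540 per library, and counting error weighs most on genes with few counts, such as Pmaip1 (6 to 79 counts), Cdkn1c (group means from 12.2 normalized counts) and Bmf (from 18.9).

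Counts were tested with edgeR 4.0.16 in R 4.3.3 (TMM scaling, filterByExpr, a quasi-likelihood test of the means of 4 groups fitted on all 12 libraries), and p-values were adjusted over 12154 genes by the Benjamini-Hochberg method. SE and 95% CI are from this fit. With 3 libraries against 3, an exact permutation test of 1 gene cannot give a two-sided p under 0.1. Alternatives were DESeq2 1.42.0, limma-voom (limma 3.58.1, as in the study's methods), other scalings and filters, a replicate block, each library left out in turn, and removal of each library's trend against exon length and GC content (spline with 4 degrees of freedom, from GENCODE M21 on GRCm38, known for 99.2% of genes tested). Levels per kilobase use the same exon lengths.

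The 10 genes, the lists and the motifs were chosen with earlier results of these data known. Genes of the lists were named by a rule, up to 3 rising and 3 falling per comparison with the largest change among those at an adjusted p under 0.05 and a mean of at least 50 normalized counts in the higher group (up to 2 for immediate early genes and ATF4 targets). Btg1, Cdkn1c, Bak1, Bid, Bad, Bcl2l11, Mcl1 and the second line's value of a gene named for 1 line were added after their values were seen.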

Additional observations from a re-analysis of the deposited data

How the results depend on the processing

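For starvation, 4 genes passed in shRenilla under all 23 alternatives, including the replicate block (4), and 4 to 6 in shBruce. In FM and for the interaction 0 passed throughout. For shBruce against shRenilla in Starv the count of 4 rose to 6 with DESeq2, adding Mdm2 and Plk2, and to 5 with limma-voom, adding Plk2, and fell to 0 in a fit of the groups compared, to 1 with length and GC trends removed, to 0 with the trends removed and the replicate block, and ran from 0 to 6 with a library left out. Over all genes the calls there went from 2907 to 3764 with DESeq2, 2768 with limma-voom and 0 in the fit of the groups compared. They came to 1435 with the trends removed, 1 with the block added to that, 1932 with the block alone and 0 to 5735 with a library left out. For starvation they ran from 1149 to 5013 in shRenilla (2061 with all libraries) and from 956 to 4009 in shBruce (2790), with the 5013 and 956 in fits of the groups compared, and for the lines in FM from 0 to 597. Whether the replicate numbers pair the libraries is not given in the sources used here. The correlations of same-numbered deviations ran from -0.42 to 0.31. Differently numbered libraries were not set beside them, so these correlations do not decide it. With the replicate block alone 3 genes passed there, Ccng1, Bax and Plk2, and Bbc3 (0.42) and Trp53inp1 (-0.81) did not. The interaction was not refitted on the groups compared because these are all 4 groups, and Pmaip1 was not tested with at least 10 counts in every library.

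Signs turned where a value lay near 0 and also for some larger values. In the fit of all libraries Bbc3 between the lines in Starv was 0.42 and passed. Bax in shBruce starvation was 0.25 there, and the interaction was 0.35 for Bax and 0.17 for Bbc3. With the trends removed, and with the replicate block added, Bax in shBruce starvation came to -0.036 and -0.042, Trp53 in FM to -0.054 and -0.058, Bbc3 between the lines in Starv to -0.088 and -0.10, and the interaction to 0.022 and 0.022 for Mdm2, -0.02 and -0.029 for Bax and -0.10 and -0.10 for Bbc3. Cdkn1a in FM came to -0.012 with both. Trp53 in FM was -0.0019 with limma-voom and -0.0067 with no filter, and Ccng1 in shRenilla starvation 0.037 with upper-quartile scaling. With 1 library left out, the ranges that cross 0 were, for starvation in shRenilla, Cdkn1a -0.02 to 0.15, Ccng1 -0.12 to 0.0054 and Pmaip1 -0.40 to 0.068, for starvation in shBruce, Pmaip1 -0.83 to 0.14, for the lines in FM, Trp53 -0.086 to 0.12, Cdkn1a -0.025 to 0.32, Pmaip1 -0.68 to 0.039 and Btg2 -0.014 to 0.11, for the lines in Starv, Trp53 -0.056 to 0.022, and for the interaction, Trp53 -0.15 to 0.058, Mdm2 -0.14 to 0.015, Pmaip1 -0.62 to 0.35 and Trp53inp1 -0.10 to 0.45. Removing trends tests whether a value moves with length and GC, and the cause of the trends was not tested.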
